A study of Mus musculus with 21 samples.

Results

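The genes described here are 39 mouse genes that interferon is known to switch on, Zbp1 among them. They are 39 of the 26852 genes in the table. They were taken from a list of gene names matched through Ensembl identifiers, without a threshold on the measured values, and earlier results of these data were known when the list was made. Interferons are secreted proteins that cells release after sensing nucleic acid where it should not be. Type I interferons bind the receptor made of Ifnar1 and Ifnar2 and act through the kinases Jak1 and Tyk2 on a factor that holds Stat2 and Irf9 and binds a promoter element named ISRE, whereas interferon gamma acts on an element named GAS. The proteins made in response sense nucleic acid, block the growth of viruses, or adjust the pathway itself. ZBP1 is one such sensor: it binds nucleic acid in the left-handed Z form and can start a form of cell death through the kinase RIPK3 and its target MLKL. In bone marrow, interferon is known to act on blood stem cells and on the stromal cells around them.

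RNA was sequenced from Nes low mesenchymal stromal cells sorted by flow cytometry from the bone marrow of Nestin+ NSG mice, which carry green fluorescent protein driven by Nestin sequences. NSG mice lack mature T, B and NK cells and keep myeloid cells of their own. The human acute myeloid leukemia (AML) lines HL60 and ML1 had been infected with a virus that makes them release sLP-mCherry, a red protein that neighboring cells take up. They were transplanted without conditioning into hosts aged 8 to 12 weeks. At an early time point, cells that had taken up mCherry (ch+) were sorted apart from cells that had not (ch-), and at a late time point the cells were collected without that marker. Controls (ctrl) came from the same strain without engraftment, and their age is not stated. There were 3 ctrl libraries, and 3 libraries for each line in each of early ch-, early ch+ and late, so that a stage with the lines pooled held 6. The labels number the libraries but do not say whether each came from a separate mouse, nor which ch+ and ch- libraries share a mouse, so the p-values measure the spread between these libraries only.

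The labels conflict at 2 places. The treatment field of the 3 ML1 late libraries reads unengrafted, whereas their titles and time point place them late, and they were kept as late. The extraction text names CD31-positive endothelial cells, whereas the source, the tissue field and the titles name Nes low mesenchymal cells. The values fit the second reading: per kilobase of exon, Cxcl12, the chemokine that stromal cells use to hold blood stem cells, reached a mean of 12.81 on the log2 scale, against 4.33 for Cdh5, the most abundant of 8 endothelial markers. Lepr, the leptin receptor of perivascular stroma, had a deposited value of 12.60 ± 0.42 (SD, n = 3) in ctrl and 14.57 ± 0.22 (n = 6) in late, and Nes one of 7.39 ± 0.24 in ctrl and 7.30 ± 0.52 in late.

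Each deposited value is a log2 level that the authors normalized between libraries and regularized, a step that pulls weakly measured genes toward their mean. Read counts were not used here, so the depth of single libraries could not be read off, and changes of weak genes may be understated. Differences were tested with limma across the 12976 genes with a mean of at least log2(10), and a gene was called higher or lower at an adjusted p under 0.1. Of the 39 members, 36 passed this filter. Oas2 and Oas3, which make the signal that activates RNase L, and Mx1, a GTPase that traps viral particles, did not: their ctrl values were 2.21 ± 0.35, 2.01 ± 0.02 and 2.55 ± 0.41 (SD, n = 3), and their late values 2.12 ± 0.17, 1.98 ± 0.01 and 2.52 ± 0.32 (n = 6). Their means were highest in early ch+ cells, at 2.94 ± 0.70, 2.89 ± 0.44 and 3.04 ± 0.84 (n = 6), and in ch- cells they were 2.20 ± 0.30, 2.64 ± 0.41 and 2.60 ± 0.72 (n = 6). No member passed through a high group alone, since the lowest ctrl mean among the 36 was 3.37, for Oas1a.

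Many members were already expressed without leukemia. Per kilobase of exon in ctrl, the log2 level was 11.95 for Ifitm2 and 11.27 for Ifitm3, small membrane proteins that keep viruses from fusing with the cell. Bst2, or tetherin, which holds budding virus on the cell surface, stood at 7.12, and Isg15, a ubiquitin-like protein attached to other proteins, at 6.88. Zbp1 was among the weaker members at 3.13, close to Gbp3 at 3.23 and Ifi44 at 3.26, and the lowest was Oas3 at −0.82. In late cells Zbp1 reached 6.06 per kilobase, near Stat2 at 6.19 and Samd9l at 6.14, and Ifitm3, at 13.02, had moved above Ifitm2, at 11.95.

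Zbp1 (ENSMUSG00000027514, chromosome 2 from 173206612 to 173218923, minus strand, GRCm38) had its lowest mean in ctrl, a higher mean in early ch+ than in early ch- cells, and its highest mean in late cells, in both lines. In the ctrl libraries 373, 374 and 375 its log2 level was 5.56, 5.27 and 4.03. Early ch- levels were 5.77, 5.39 and 5.40 with HL60, and 5.71, 5.30 and 5.54 with ML1. Early ch+ levels were 6.71, 6.10 and 5.89 with HL60, and 6.78, 6.38 and 6.16 with ML1. Every ch+ library thus lay above every ctrl and every ch- library, while ch- overlapped ctrl. In late cells the level was 7.34, 6.99 and 7.95 with HL60, and 8.14, 8.24 and 8.59 with ML1. All 6 late libraries lay above all early ones, and the 3 of ML1 above the 3 of HL60.

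Against ctrl, Zbp1 rose in late cells by a log2 fold change of 2.92 (SE 0.34, adjusted p = 3.91e-07, limma) and in early ch+ cells by 1.39 (SE 0.34, adjusted p = 0.0158). Its change in ch- cells was 0.57 (SE 0.34, adjusted p = 0.552, limma). That change ran from 0.10 to 0.87 over the fits that left out a library, and none of them called it. By line, late Zbp1 rose by 2.48 with HL60 (adjusted p = 2.4e-05) and by 3.37 with ML1 (adjusted p = 5.5e-08), and early ch+ Zbp1 by 1.28 with HL60 (adjusted p = 0.055) and by 1.49 with ML1 (adjusted p = 0.017). The ch+ calls rested on single libraries. Without ctrl 375, the lowest control, the ch+ change was 0.92 with the lines pooled (adjusted p = 0.197), 0.82 with HL60 and 1.02 with ML1, none of them called, and without HL60 ch+ 523 the HL60 change was 1.05 (adjusted p = 0.228). The late call held in each fit that left out a library, with changes of 2.46 to 3.23.

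Zbp1 did not rise alone. In late cells 25 of the 36 tested members were called higher, against 10.2% of all tested genes, and 0 lower, against 11.4%. Zbp1 had the largest change of the 36. It ranked 8 of all 12976 tested genes in that comparison. In early ch+ cells 8 members were called higher, against 3.41% of all tested genes, and Zbp1 ranked 3 among the 36. In early ch- cells 1 member was called higher, against 1.13% of all tested genes. It was Rsad2 and not Zbp1, which ranked 11.

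**Figure D1:**
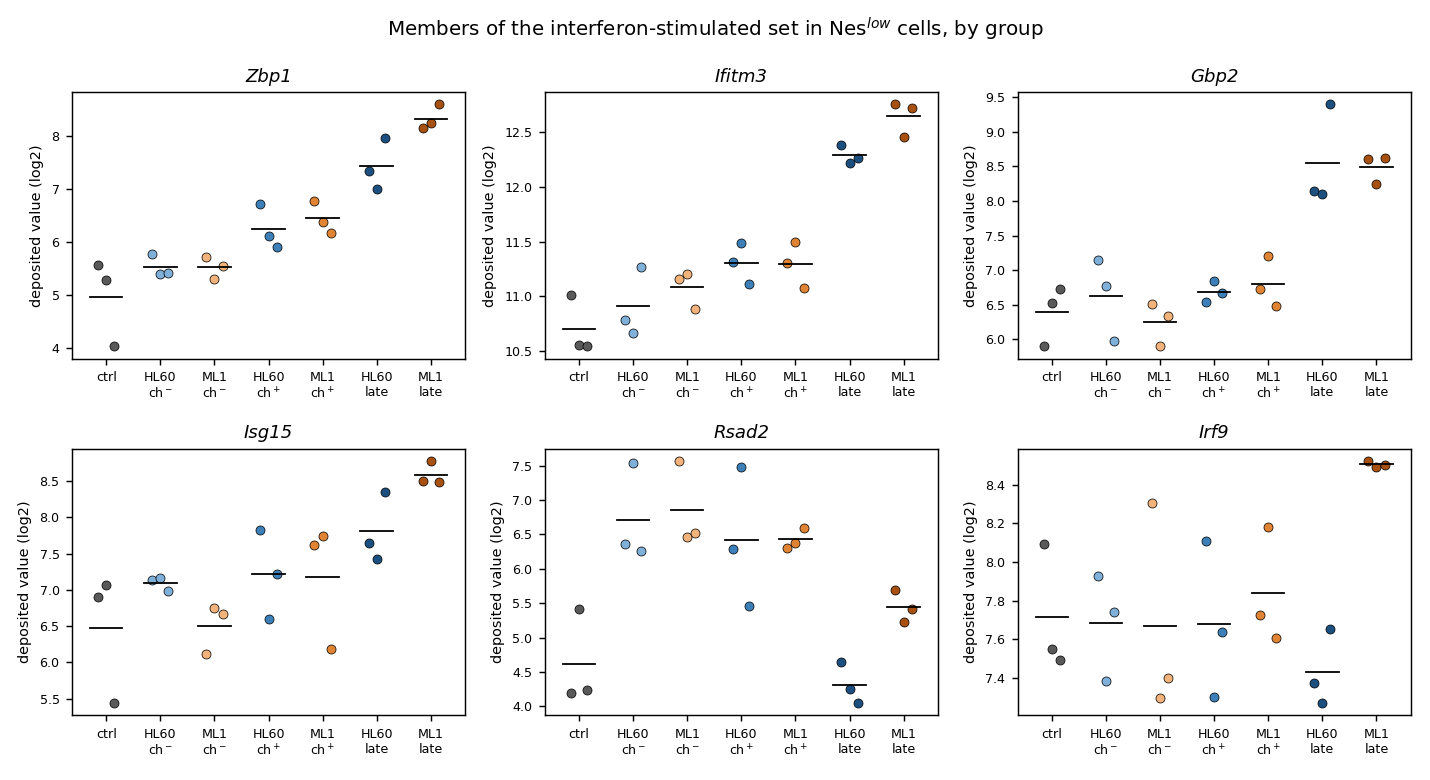
Deposited log2 value (vertical axis) of 6 members in each of the 21 libraries, by group (horizontal axis), with a bar at each group's mean. Zbp1, Ifitm3, Gbp2 and Isg15 had their highest group means in late cells, Rsad2 had its highest in early cells, and Irf9 was high in the 3 ML1 late libraries and not in the 3 HL60 late ones.

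The comparison of late cells with ctrl asks what established leukemia goes with in these cells. Most members were higher: 25 of 36 were called higher, against 10.2% of all tested genes, and 0 were called lower, against 11.4% (limma; 26 of the 36 had an unadjusted p under 0.05). The median log2 fold change of the 36 was 1.28, against 0.02 over all tested genes, and each of the 36 had a positive value. In 21 members every late library lay above every ctrl library, which 9.15% of all tested genes did. Of the 25 calls, 15 held in every fit that left out a library.

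Among the 4 nucleic acid sensors, Zbp1 and Ifih1 (MDA5, a detector of long double-stranded RNA) rose, the latter by 0.75 (SE 0.24, adjusted p = 0.0294). Ddx58 (RIG-I, which reads RNA ends) and Dhx58 (LGP2, their modulator) were not called, with changes of 0.43 and 0.76. Without ctrl 375 the change of Ifih1 was 0.62 and no longer called (adjusted p = 0.154). Among the 4 transcription factors, Stat2, a partner of Irf9, rose by 1.1 (SE 0.26, adjusted p = 0.00275), and Irf7, which amplifies interferon alpha production, by 1.32 (SE 0.35). Irf7 lost its call by a small margin without ctrl 374 (0.99, adjusted p = 0.102). Irf1 and Irf9 were not called, at 0.48 and 0.26.

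Of the 9 tested antiviral effectors, 6 rose. Ifit1, which binds foreign RNA ends, rose by 1.78 (SE 0.40, adjusted p = 0.0018). Oasl2, a relative of the 2-5A synthetases, also rose by 1.78 (SE 0.29). The others were Mx2 (1.47), the RNA exonuclease Isg20 (1.41), and the RNA-binding Ifit2 (1.36) and Ifit3 (1.21). Single controls decided some of these calls: Ifit2 lost its call without ctrl 373 (1.03, adjusted p = 0.104), and Ifit3 and Isg20 theirs without ctrl 374 (0.85 and 0.88, adjusted p = 0.207 and 0.269). Eif2ak2, the kinase PKR that halts translation, stood at 0.01, Oas1a at 0.78 and Rsad2 at 0.26, none of them called. Ifit3 has a near-identical neighbor, Ifit3b, and RSEM divides shared reads between such genes, so the split between them is uncertain.

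Of the 4 membrane restriction factors, Ifitm3 and Bst2 rose. The log2 level of Ifitm3 was 11.02, 10.56 and 10.55 in ctrl, 12.38, 12.21 and 12.26 in HL60 late, and 12.75, 12.45 and 12.72 in ML1 late cells. Every late library lay more than a log2 unit above every ctrl library, and the change was 1.75 (SE 0.16, adjusted p = 4.82e-09). Bst2 rose by 1.28 (SE 0.32, adjusted p = 0.00506). Ifitm1 and Ifitm2 were not called, at 0.53 and 0.01, although Ifitm2 has a sequence close to that of Ifitm3 and lies near it on chromosome 7.

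In the ISG15 system, Isg15 and Usp18 rose and Trim25 was not called. Isg15 levels were 6.91, 7.07 and 5.44 in ctrl, 7.65, 7.43 and 8.35 in HL60 late, and 8.50, 8.78 and 8.49 in ML1 late cells. The groups did not overlap, and the change was 1.73 (SE 0.37, adjusted p = 0.00114). Usp18, the protease that removes ISG15 and damps the receptor, rose by 1.39 (SE 0.46, adjusted p = 0.0348). It lost that call without ctrl 375 (1.16, adjusted p = 0.169). Trim25, a ubiquitin ligase that activates RIG-I, had a change of 0.33.

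The interferon-inducible GTPases, which attack the vacuoles of intracellular microbes, rose in 5 of 6 cases. Gbp2 levels were 5.91, 6.53 and 6.73 in ctrl, 8.14, 8.10 and 9.40 in HL60 late, and 8.60, 8.25 and 8.62 in ML1 late cells. The late libraries all lay above the controls, and the change was 2.13 (SE 0.30, adjusted p = 4.41e-06). Gbp3 rose by 2.07, Iigp1 by 1.73 and Gbp7 by 1.56. Igtp was called at 0.86 (SE 0.32, adjusted p = 0.0634). It lost the call without ctrl 374 (0.57, adjusted p = 0.336), HL60 late 399 (0.78), ML1 late 582 (0.82) or ML1 late 583 (0.80). Irgm1, a regulator of the other GTPases, was not called, at 0.83.

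All 6 remaining members rose. Parp14, which adds ADP-ribose to proteins, had levels of 7.83, 6.62 and 6.35 in ctrl, 8.58, 8.18 and 8.55 in HL60 late, and 9.36, 9.42 and 8.91 in ML1 late cells. No late library overlapped ctrl, and the change was 1.90 (SE 0.30, adjusted p = 2.53e-05). Ifi44 rose by 1.66, the apoptosis-linked Xaf1 by 1.56, the receptor chaperone Rtp4 by 1.27, Ifi35 by 0.93 and the restriction factor Samd9l by 0.73. Ifi44 lost its call without ctrl 375 (1.14, adjusted p = 0.197) and Rtp4 without ctrl 374 (0.77, adjusted p = 0.211). The call of Ifi35 ended without any of 6 libraries, and its change was 0.48 without ctrl 375 (adjusted p = 0.487), 1.02 without ctrl 374, 0.90 without HL60 late 399, and 0.93, 0.82 and 0.89 without ML1 late 581, 582 and 583.

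**Figure D2:**
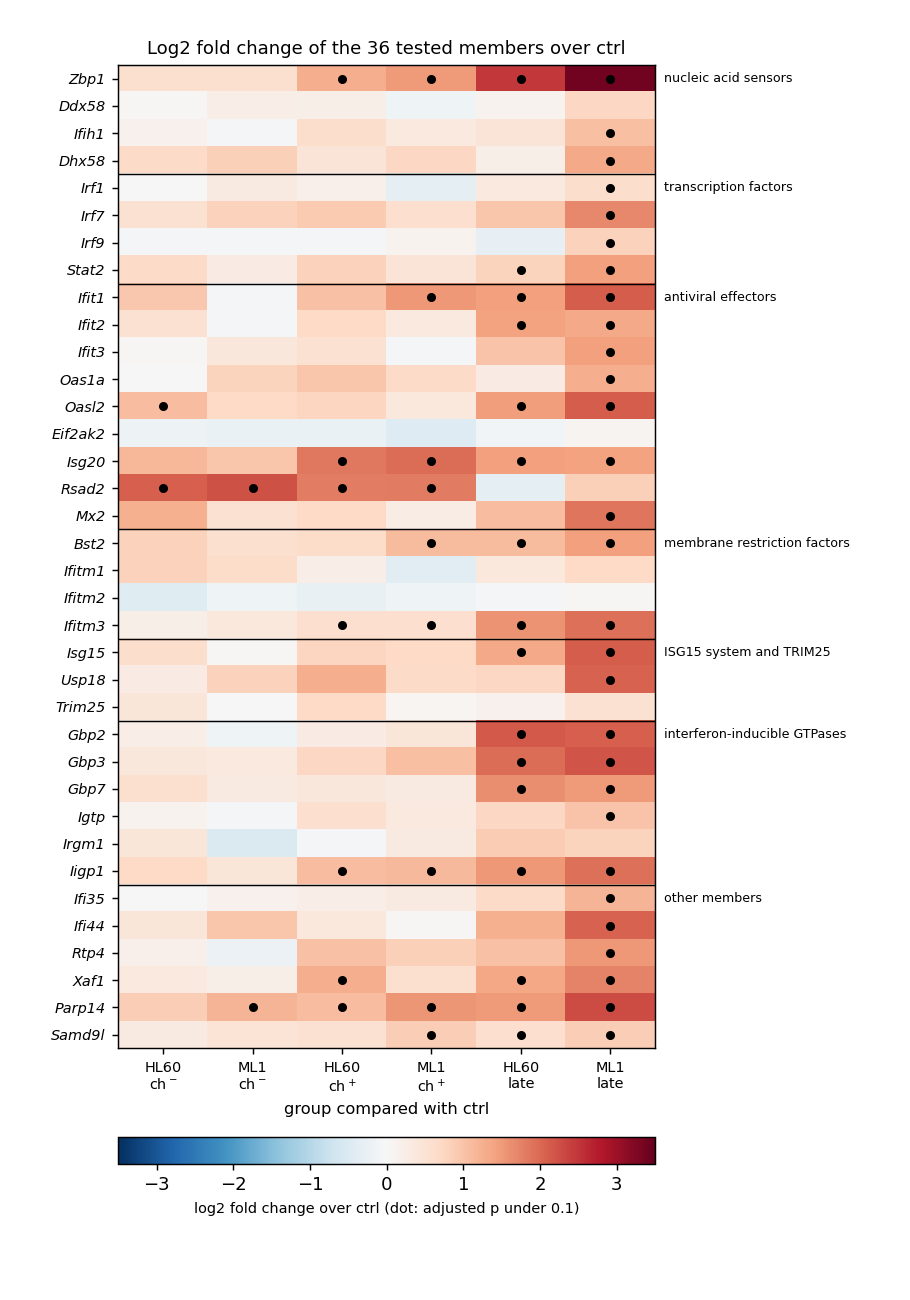
Log2 fold change over ctrl (color scale) of the 36 tested members (rows, in blocks by role) in each line and stage (columns), with a dot where the adjusted p was under 0.1. Late columns hold 16 dots with HL60 and 29 with ML1, ch+ columns 7 and 9, and ch- columns 2 and 2.

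The comparison of early ch+ cells with ctrl asks what goes with contact between stroma and a small number of leukemic cells. It uses the same 3 controls as the late comparison. Here 8 members were called higher, against 3.41% of all tested genes, and 0 lower, against 2.75% (limma; 15 members had an unadjusted p under 0.05). The 8 were Isg20 (1.91, SE 0.45), Rsad2 (1.80, SE 0.43), Zbp1 (1.39), Parp14 (1.30, SE 0.30), Ifit1 (1.28, SE 0.40), Iigp1 (1.11, SE 0.29), Samd9l (0.70, SE 0.18) and Ifitm3 (0.59, SE 0.16), with adjusted p from 0.00815 for Parp14 to 0.0708 for Ifit1. They cover a sensor, 3 effectors, a membrane factor, a GTPase and 2 other members, while no transcription factor and no gene of the ISG15 system was called. The median of the 36 was 0.57, against 0.01 over all tested genes, and 32 were positive. In Zbp1, Isg20, Rsad2, Ifitm3 and Samd9l every ch+ library lay above every ctrl library, a separation that 4.16% of all tested genes showed.

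Single controls bore on most of these 8 calls, and only that of Rsad2 held in every fit that left out a library. Without ctrl 374, 3 members were called. Isg20 (1.38), Iigp1 (0.93) and Samd9l (0.55) lost their calls without ctrl 374, Parp14 (1.01, adjusted p = 0.104) and Zbp1 without ctrl 375, and Ifitm3 without either of them (0.52 and 0.51). Ifit1 lost its call without ctrl 373 (1.19), ctrl 374 (0.97), HL60 ch+ 525 (1.23), ML1 ch+ 539 (1.17) or ML1 ch+ 541 (1.23).

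In early ch- cells, from the same marrows but without mCherry, the members were nearer to ctrl. Only Rsad2, viperin, which makes a nucleotide that stops viral RNA synthesis, was called higher, 1 of 36 against 1.13% of all tested genes. None was called lower, against 0.786% (limma; 9 of the 36 had an unadjusted p under 0.05). The count was 2 without any of ctrl 373, HL60 ch- 529, HL60 ch+ 524, ML1 ch+ 539, HL60 late 398 and ML1 late 582. The median was 0.38 and 31 members were positive. In Dhx58, Oasl2, Rsad2 and Mx2 every ch- library lay above every ctrl library, as in 3.27% of all tested genes.

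Rsad2 was the 1 member called lower from ch+ to late. Its log2 level was 4.19, 5.42 and 4.24 in ctrl. In ch- cells it was 6.36, 7.53 and 6.25 with HL60 and 7.57, 6.47 and 6.52 with ML1, and in ch+ cells 6.29, 7.49 and 5.47 with HL60 and 6.31, 6.38 and 6.59 with ML1. All 12 early libraries lay above ctrl. In late cells it was 4.65, 4.25 and 4.05 with HL60, within the ctrl range or below it, and 5.69, 5.22 and 5.41 with ML1. It rose by 2.17 in ch- cells (SE 0.43, adjusted p = 0.00489) and by 1.80 in ch+ cells, and from ch+ to late it fell by 1.54 on the log2 scale (SE 0.35, adjusted p = 0.00173).

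The early libraries, where Rsad2 was high, also held more RNA of blood cells that the sort should have removed, since the protocol depletes blood cells with magnetic beads and the study stained for CD45 and the red cell antigen Ter119. For 10 neutrophil and precursor markers, the log2 of the summed level had a mean of 10.82 in ch- and 10.81 in ch+ cells, against 7.45 in ctrl and 6.76 in late cells, and ctrl 375, at 9.02, stood above the other controls at 6.69 and 6.64. For 8 red cell markers these means were 12.88 and 12.99, against 8.88 in ctrl and 6.73 in late cells. The most abundant genes per kilobase were S100a9, at 7.65, and Hbb-bs, at 9.51. Against ctrl, 9 of 10 neutrophil markers were called higher in ch- and 9 in ch+ cells, and 7 and 8 of the 8 red cell markers. In late cells 2 neutrophil and 4 red cell markers were called lower and none higher. The part of these cells in the early changes, that of Rsad2 included, was not tested. In bulk RNA, fewer cells of a type and less RNA per cell cannot be told apart.

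Other cell types were checked in the same way. The summed level of 10 monocyte and macrophage markers went from a log2 mean of 9.10 in ctrl through 8.92 (ch-) and 8.69 (ch+) to 8.26 in late cells, with Mertk the most abundant per kilobase (6.39) and C1qa and Cx3cr1 below 0 in every library. Only 2 of the 10 passed the filter, and 1 of them, Mertk, was called lower in late cells. The sum of the 10 pan-leukocyte markers had means of 8.04 in ch- and 7.82 in ch+ cells, against 7.0 in ctrl and 6.6 in late cells, led by Fcer1g (5.64 per kilobase). Of their 5 tested genes, 2 were called higher in ch-, 3 in ch+, and 1 lower in late cells. Plasmacytoid dendritic cells are strong makers of interferon alpha. Of their 5 markers in the table Siglech, Klk1 and Spib were below 0 in every library, and the 1 tested, Pacsin1 (3.52 per kilobase), was called lower in late cells. It was also called lower in ML1 ch- (−1.55, adjusted p = 0.0395) and ML1 ch+ cells (−1.43, adjusted p = 0.0304). The mean sum of the 5 was 7.42 in ctrl and 5.64 in late cells, and lay between them in the early groups (6.52 for ch-, 6.57 for ch+). Since Pacsin1 alone passed the filter, this sum rests mainly on that gene. None of 8 T, B and NK markers passed the filter, Nkg7 was the most abundant at 1.06 per kilobase, and Cd3g and Cd8a were below 0 throughout. Of 7 tested endothelial markers, 0 were called in late, ch+ or ch- cells against ctrl (limma; 1, 1 and 0 had an unadjusted p under 0.05), and their sum averaged 8.27 in ctrl and 8.13 in late cells. With the lines apart, the endothelial Erg was called higher in HL60 late cells (1.06, SE 0.40, adjusted p = 0.0928), and Cdh5, Kdr, Pecam1 and Tek were called lower in ML1 late cells (−1.06, −1.15, −1.02 and −0.93). The part of these cell types in the members' changes was not tested.

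**Figure D3:**
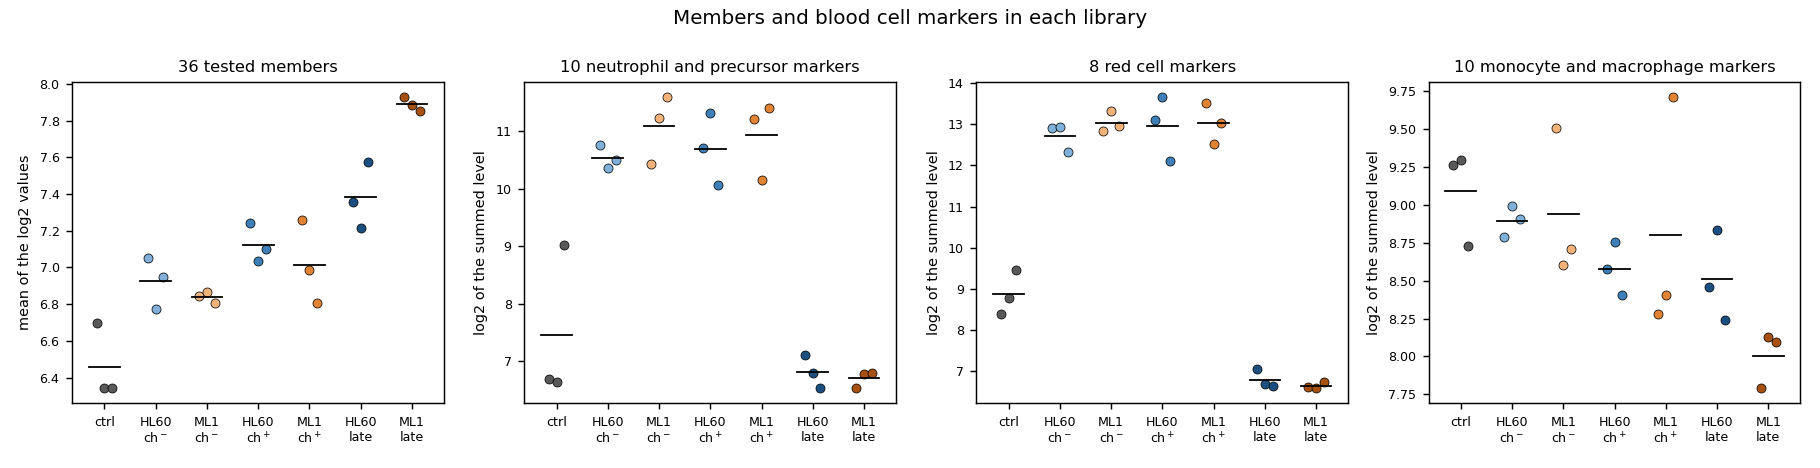
Mean log2 value of the 36 tested members, and log2 of the summed level of 3 lists of blood cell markers (vertical axes), in each of the 21 libraries by group (horizontal axis), with a bar at each group's mean. Member means ran from 6.34 in ctrl to 7.93 in ML1 late libraries, whereas the neutrophil and red cell sums were high in the 12 early libraries and low in the late ones.

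Several mesenchymal markers were higher as well. Against ctrl, 7 of 10 were called higher and 1 lower in late cells, 6 higher in ch+ and 0 in ch- cells (limma; 6 had an unadjusted p under 0.05 in ch-). With the lines apart, 0 were called in HL60 ch- cells (limma; 1 had an unadjusted p under 0.05) and 5 were called higher in ML1 ch- cells, Adipoq by 0.84, Ebf3 by 0.81, Kitl and Vcam1 by 0.75 each and Lepr by 0.57. Lepr rose by 1.97 (SE 0.19) and Cxcl12 by 0.99 (SE 0.19) in late cells. Pdgfra was called lower at −0.38. Bringing all libraries to a common total, which moves all genes of late cells, gave 0.32, whereas quantile normalization gave −0.39. The part of a purer or different stromal fraction in the members' changes was not tested.

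The comparison of ch+ with ch- cells asks what sets labeled stroma apart from its neighbors. The controls do not enter the difference but do enter the filter, the variance and the adjustment. Both kinds of cell came from the same marrows, but the labels do not say which libraries share a mouse. No fit paired them, so the p-values here ignore any such pairing. Only Rtp4, a chaperone of receptors at the membrane, was called higher, 1 of 36 against 3.58% of all tested genes, and 0 members were called lower, against 2.68% (limma; 10 had an unadjusted p under 0.05). Rtp4 levels were 7.10, 6.03 and 6.64 in HL60 ch- and 6.18, 7.09 and 5.38 in ML1 ch- cells, and 7.62, 7.13 and 7.56 in HL60 ch+ and 7.47, 7.80 and 6.48 in ML1 ch+ cells. The groups overlapped through ML1 ch+ 541, and the change was 0.94 (SE 0.30, adjusted p = 0.0701). It lost the call without any of HL60 ch- 528 (0.87), ML1 ch- 543 (0.90) and 546 (0.74), HL60 ch+ 523 (0.89) and 525 (0.90), and ML1 ch+ 538 (0.92) and 539 (0.85). Zbp1 was just outside the threshold at 0.82 (SE 0.28, adjusted p = 0.103), although its groups did not overlap, and so was Ifitm1 in the other direction, at −0.80 (SE 0.28, adjusted p = 0.109). The adjusted p of Zbp1 (limma) ran from 0.0553 to 0.207 over the alternatives, and the lowest value came from an alternative other than the omission of a single library. Among the fits that left out a library, Zbp1 was called without ctrl 373, ctrl 375, HL60 ch+ 525 or HL60 late 398 (adjusted p = 0.0889, 0.058, 0.0793 and 0.0814). The count itself was 0 without any of HL60 ch- 528, ML1 ch- 543 and 546, HL60 ch+ 523 and ML1 ch+ 539, and 2 without any of ctrl 373 and 375, HL60 ch- 527 and 529, HL60 ch+ 524, ML1 ch+ 541 and HL60 late 398. Among the markers, the monocyte gene Ly6c2 was called higher in ch+ cells (1.24, SE 0.34, adjusted p = 0.0257), as was Cxcl12 (0.46, SE 0.15, adjusted p = 0.087), and their part in the result was not tested. The neutrophil, red cell and pan-leukocyte lists had 0 calls in either direction between ch+ and ch- (limma; 0, 0 and 1 genes had an unadjusted p under 0.05).

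From early ch+ to late, again with controls outside the difference itself, 13 members were called higher, against 8.79% of all tested genes, and 1 lower, against 10.9%. The 1 lower was Rsad2. With a common total for all libraries, more members and more of all tested genes were called, and those counts are given with the processing. Gbp2 rose by 1.77 (SE 0.24, adjusted p = 2.2e-06), Zbp1 by 1.54 (SE 0.28, adjusted p = 0.000143), Ifi44 by 1.47 (SE 0.40), Oasl2 by 1.22 (SE 0.24), Gbp7 by 1.2 (SE 0.17), Gbp3 by 1.18 (SE 0.39), Ifitm3 by 1.16 (SE 0.13, adjusted p = 5.96e-08) and Mx2 by 1.01 (SE 0.33). Isg15, Ifit3, Ifit2, Iigp1 and Irf1, a factor that also responds to interferon gamma, rose by 0.55 to 1.00. Markers of other cells also changed between these groups: 9 of 10 neutrophil, 8 of 8 red cell, 4 of 5 pan-leukocyte and 3 of 7 endothelial markers were called lower, Hbb-bs by 7.18, as were 1 of 2 monocyte markers and Pacsin1. Of 10 mesenchymal markers 4 were called higher, Lepr by 1.30, and 2 lower, Adipoq by 1.11 and Pdgfra by 0.36. With a common total, which moves all genes of late cells, the change of Pdgfra was 0.25, and with quantile normalization −0.29. The part of these marker changes in the members' changes was not tested. The GTPases supplied 4 of the 13. The median of the 36 was 0.57, against 0.02 over all tested genes. Of the 14 calls, 9 held in every fit that left out a library. The changes nearest the threshold, those of Irf1, Ifit2, Mx2, Gbp3 and Iigp1, lost their calls without single libraries: Irf1 without ML1 ch+ 538 (0.43) or ML1 late 582 (0.51) or 583 (0.48), Mx2 without ML1 ch+ 539 (0.84) or ML1 late 581 (0.88), and Gbp3 without HL60 ch+ 524 (0.98) or ML1 ch+ 539 (0.96). Ifit2 lost its call without HL60 ch+ 524 (0.73), ML1 ch+ 538 (0.80) or 541 (0.78), HL60 late 398 (0.81) or 399 (0.80), or ML1 late 581 (0.81). Iigp1 lost its call without HL60 ch+ 524 (0.49), ML1 ch+ 539 (0.60) or 541 (0.60), HL60 late 399 (0.58), or ML1 late 581 (0.56), 582 (0.57) or 583 (0.61).

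Late libraries had smaller totals than the others: the deposited levels, taken off the log scale, summed to between 7.27 and 9.02 mega-units, against 11.86 to 14.23 mega-units in ctrl. With a common total for all libraries, the median change over all tested genes between late and ctrl went from 0.02 to 0.71. Between late and ch+ the median over all tested genes went to 0.63.

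With the lines apart, both showed the late rise. With HL60, 16 of 36 members were called in late cells, against 13.7% of all tested genes, and with ML1 29, against 22%, each of them higher. The members' median was 0.97 with HL60 and 1.43 with ML1. Without HL60 late 399, the HL60 count was 8. It was higher with a common total for all libraries, as was the count over all tested genes, and both are given with the processing. In HL60 late cells the sensor called was Zbp1 and the transcription factor Stat2, and in ML1 late cells 3 of 4 sensors and all 4 transcription factors were called, Irf1 and Irf9 among them. Gbp2 rose to a like extent, by 2.16 with HL60 and 2.10 with ML1.

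The late lines were then compared directly. Relative to ML1, HL60 cells had 0 members called higher and 1 lower, against 4.09% of all tested genes in either direction (limma; 11 members had an unadjusted p under 0.05), and 31 of the 36 had a negative difference, with a median of −0.46. The 1 was Irf9, the DNA-binding part of the type I interferon factor. Its levels were 7.37, 7.27 and 7.65 in HL60 late cells, 8.52, 8.49 and 8.51 in ML1 late cells, and 8.09, 7.55 and 7.50 in ctrl. All 3 ML1 libraries lay above all HL60 and ctrl libraries, and the difference was −1.08 (SE 0.28, adjusted p = 0.0227). Without HL60 late 398, 0 members were called, whereas 8 were called with a common library total and 12 when the compared groups were fitted alone, all lower with HL60. In those fits 705 of 13020 and 990 of 12976 tested genes were called in either direction. Among the markers, Pacsin1 was called higher with HL60 (1.81, SE 0.39, adjusted p = 0.00429) and 1 of 10 mesenchymal markers lower, and their part in the result was not tested. For Zbp1 the difference was −0.90 (SE 0.38, adjusted p = 0.314), so its larger change with ML1 did not pass the test of the difference. The 3 ML1 late libraries are also those whose treatment label conflicts with the title, and without them 15 members were called between late and ctrl.

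In early ch+ cells, 7 members were called against ctrl with HL60, against 5.33% of all tested genes, and 9 with ML1, against 6.69%, all higher. Both lines called Zbp1, Isg20, Rsad2, Ifitm3, Iigp1 and Parp14, and they shared the 3 controls. Xaf1 was called with HL60, at 1.27, and Ifit1, Bst2 and Samd9l with ML1, at 1.53, 1.09 and 0.86. The HL60 count was 4 without ctrl 373 and 3 without ctrl 374 or HL60 ch+ 523, and the ML1 count was 4 without ctrl 374. Between the lines, 0 members differed in ch+ cells, against 0.0154% of all tested genes (limma; 1 member had an unadjusted p under 0.05).

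In early ch- cells, 2 members were called with HL60, Rsad2 (2.10) and Oasl2 (1.09), against 1.57% of all tested genes. With ML1 there were 2, Rsad2 (2.24) and Parp14 (1.19), against 2.34%. Each count was 1 without ctrl 374 or ctrl 375. The HL60 count was also 1 without HL60 ch- 528 or 529, HL60 late 399, or any ML1 late library, and the ML1 count without ML1 ch- 543. Between the lines, 0 members differed in ch- cells, against 0.0539% (limma; 2 had an unadjusted p under 0.05).

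Between ch+ and ch- cells of the same line, 0 members were called with HL60, against 3.92% of all tested genes (limma; 4 had an unadjusted p under 0.05), and 1 without HL60 ch- 529. With ML1, 1 was called, against 4.25%. It was Ifit1, higher by 1.59 (SE 0.41, adjusted p = 0.0241). Its levels were 5.96, 5.15 and 6.87 in ML1 ch- cells and 7.33, 7.87 and 7.55 in ML1 ch+ cells, without overlap. The ML1 count was 0 without ML1 ch+ 539 and 2 without ML1 ch+ 538 or 541.

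The genes upstream of the members gave a mixed picture. Of 21 interferon genes listed, 9 were in the table, none passed the filter, and the highest, Ifnk, a skin-type interferon, ran from −0.03 to 0.39 on the log2 scale. A gene with few reads sits at such a floor here, so a brief or weak production of interferon by these cells could not be detected. Of 5 tested receptor genes, 4 rose in late cells, against 10.2% of all tested genes. They were Il10rb, which serves interferon lambda and interleukin 10 (1.44), Ifngr2 (1.01) for interferon gamma, and Ifnar2 (0.81) and Ifnar1 (0.50) for type I interferon. These changes pool the lines, and Il10rb and Ifnar1 were not called in HL60 late cells alone. Against ctrl, 0 of the 5 were called in ch+ and 0 in ch- cells (limma; 0 and 0 had an unadjusted p under 0.05). From ch+ to late 3 rose, against 8.79% of all tested genes.

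From ch+ to late, the receptor kinase Tyk2 fell by 0.76 (SE 0.26). The 2 tested inhibitors of the pathway outside the members were Pias1 and Socs3. Neither was called in late, ch+ or ch- cells against ctrl (limma; 0, 0 and 0 had an unadjusted p under 0.05). The member Usp18, which damps the receptor, was called higher in late cells (1.39), a call lost without ctrl 375. Among 11 tested genes that lead to interferon production, 4 rose in late cells, against 10.2% of all tested genes. They were the kinase Tbk1 (1.18), the DNA-sensing adaptor Sting1 (1.12), and the receptors Tlr4 (0.95) and Tlr3 (0.69). These changes pool the lines, and Sting1 and Tlr3 were not called in HL60 late cells alone. In ch+ cells, where 3.41% of all tested genes were called higher, Tlr3 (1.06), Tlr4 (0.95) and Tbk1 (0.80) rose. In ch- cells, where 1.13% were, Tbk1 (0.85) rose. From ch+ to late, where 8.79% were called higher, Myd88 (1.04) and Sting1 (0.85) rose.

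The partners of ZBP1 in cell death were measured as well. Of 5 tested, 3 rose in late cells, against 10.2% of all tested genes. Ripk3 rose by 1.93 (SE 0.48, adjusted p = 0.0044, limma), Mlkl by 1.24 (SE 0.49) and Casp8, the protease that restrains them, by 0.79 (SE 0.32). These values pool the lines. In HL60 late cells alone Ripk3 was called by a small margin (adjusted p = 0.0992, limma). Mlkl (0.72, adjusted p = 0.462) and Casp8 (0.73, adjusted p = 0.177) were not called there. In ML1 late cells Ripk3 (2.48), Mlkl (1.76) and Casp8 (0.86) were all called higher. Ripk3 levels were 3.53, 3.77 and 3.43 in ctrl, 5.23, 4.23 and 5.40 in HL60 late, and 6.6, 6.31 and 5.25 in ML1 late cells, with no overlap between late and ctrl. In ch+ cells, where 3.41% of all tested genes were called higher, Ripk3 was called at 1.42 (adjusted p = 0.097, limma). In ch- cells 0 of the 5 were called (limma; 0 had an unadjusted p under 0.05).

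A wider list held 60 further interferon-stimulated genes, not among the members. Of 47 tested, 32 were called higher and 1 lower in late cells (10.2% and 11.4% of all tested genes), 10 higher in ch+ (3.41%) and 2 higher in ch- cells (1.13%), each against ctrl and with medians of 1.09, 0.55 and 0.27. The largest late changes were those of Ifi207 (3.14) and Ifi204 (2.25), of a DNA-sensing family with similar sequences, and of the chemokines Cxcl10 (2.96) and Cxcl9 (2.46), which draw T cells. Gbp4 was the 1 lower, at −1.54. In ch+ cells Slfn8 (1.65), Sp100 (1.39), Trim30a (1.25) and Ifi47 (1.12) rose, and in ch- cells Parp12 (1.04) and Sp100 (0.89). Between ch+ and ch- cells 6 of the 47 were called higher (3.58% of all tested genes), led by Ly6e (0.76), Pml (0.64), Shisa5 (0.59) and Lgals3bp (0.57). From ch+ to late 19 were called higher and 1 lower (8.79% and 10.9%).

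The promoters of the members share short sequences that the list did not use. RefSeq promoters on GRCm38.p6, 250 bases before to 50 after the gene's start, were at hand for 30 of the 39 members. Those of Dhx58, Iigp1, Mx1, Mx2, Oas2, Parp14, Rtp4, Usp18 and Zbp1 were not in the set. The core letters of the ISRE, GAAANNGAAA, were searched on both strands, so that TTTCNNTTTC counts too. They stood in the promoters of 18 of the 30 genes, or 60.0%, against 3.99% of 27025 genes with a promoter. The GAS letters, TTCNNNGAA, which read the same on both strands, stood in 10 of the 30, or 33.3%, against 9.55%. In Bst2 and Ifitm3 a GAS match overlapped an ISRE match. By late call, ISRE letters were found in 11 of 19 members called higher, in 6 of 10 not called and in the 1 not tested. A match describes letters and not a bound site.

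Stretches around the ISRE letters are shown for members that rose in late cells, from 4 roles, to let the shared letters be compared. Each is written 5′ to 3′ on the strand of its gene with the ISRE matches in capitals. The positions are chr4:156200863-156200908 on the minus strand for Isg15, chr3:142620592-142620625 on the plus strand for Gbp2, chr19:34640773-34640825 on the plus strand for Ifit1, chr19:34583361-34583428 on the plus strand for Ifit3, chr11:58199510-58199543 on the plus strand for Igtp and chr8:71537575-71537614 on the minus strand for Bst2.
Isg15: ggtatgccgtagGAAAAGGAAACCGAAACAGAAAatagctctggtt
Gbp2: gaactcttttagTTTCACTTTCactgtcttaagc
Ifit1: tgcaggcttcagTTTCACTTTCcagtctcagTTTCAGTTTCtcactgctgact
Ifit3: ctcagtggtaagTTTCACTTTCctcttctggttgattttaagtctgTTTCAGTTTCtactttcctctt
Igtp: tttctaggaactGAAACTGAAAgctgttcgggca
Bst2: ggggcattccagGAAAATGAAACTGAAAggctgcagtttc
The Isg15 stretch holds 3 overlapping ISRE matches, those of Ifit1 and Ifit3 hold 2 separate ones each, that of Bst2 holds 2 that overlap, and those of Gbp2 and Igtp hold 1 each. The stretches of Bst2 and Igtp also hold a GAS match each, TTCCAGGAA and TTCTAGGAA, for which no capitals were set. The end of the Bst2 one still stands in capitals, because it overlaps an ISRE match.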

How the data were processed

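The authors deposited log2 values after regularization, per Ensembl gene, from reads aligned to mm10 with STAR 2.5.1b, counted with RSEM 1.2.29 and normalized with DESeq2, version 1.10.1 by the processing notes and 1.22.2 by the paper. The file name speaks of normalized counts and the methods of log10, but the range, −2.33 to 22.44, and the shrinking spread at low means are those of regularized log2 values. Groups came from titles and time points. Genes with a mean of at least log2(10) were tested two-sided with limma 3.58.1 under R 4.3.3, letting the prior variance follow the mean, in a fit of 4 groups for pooled stages and of 7 for the lines apart. Adjusted p-values are Benjamini-Hochberg over all tested genes. Figures were drawn with matplotlib 3.10.9. The code was tested on simulated data. Members and lists were chosen with earlier results of these data known. Named genes are the members by role, up to 8 in full per comparison and direction, and up to 4 called genes per pathway list; other genes named were chosen after their values were seen. Alternatives covered filters, scaling, the trend, robust settings, the threshold, the groups fitted and leaving out each library, and omission of the 3 ML1 late libraries was added after seeing the data. Levels per kilobase used GENCODE exon lengths.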

Additional observations from a re-analysis of the deposited data

Results flagged for a closer look

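In 6 of the 117 groups of 6 libraries checked, a single library stood far from the other 5 by Dixon's test and chance alone gives about 1 in 20. Ifih1 in early ch- cells was 8.54 in HL60 528 against 7.73 to 7.95 in the others. Ifit3 in ch+ cells was 4.94 in ML1 541 against 6.24 to 6.56, and Xaf1 in the same library was 5.02 against 6.52 to 7.34. Mx1 in ch- cells was 4.04 in ML1 544 against 2.22 to 2.58. In late cells Gbp7 was 9.77 in HL60 399 against 9.01 to 9.27, and Samd9l was 9.07 in ML1 582 against 8.42 to 8.65.

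In late cells, 1 of 36 tested members and 4 of 47 further interferon-stimulated genes differed between the lines by the test of the difference, against 4.09% of all tested genes. The log2 differences are those of HL60 minus ML1. Irf9 differed by −1.08, and among the further interferon-stimulated genes Cxcl10 differed by −1.56, Ifi203 by −1.41, Phf11d by −1.37 and Ly6e by −0.95.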

How the results depend on the processing

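Leaving aside the fits that omit libraries, 23 of the 25 late calls against ctrl held in every setting chosen beforehand, as did 7 of 8 in ch+ cells, 1 of 1 in ch- cells, 0 of 1 between ch+ and ch-, and 10 of 14 from ch+ to late. In every fit that omits a single library, these numbers were 15, 1, 1, 0 and 9. No member's result reversed. The marker Pdgfra changed direction with rescaling, which moves all genes of late cells, and not with quantile normalization. Unless a cause is given, the cause of a changed count was not tested.

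Without the 3 ML1 late libraries, an alternative added after seeing the data, 15 members were called between late and ctrl, 2 between ch- and ctrl, and 6 between ch+ and late, with fewer libraries in the fit. Between ch- and ctrl, 2 were called with the filter of 5, with robust settings and with the compared groups alone, and 3 with 7 groups. Between ch+ and ch-, 0 were called without a filter and at the threshold of 0.05, 2 with quantile normalization, no trend or robust settings, 3 with the filter of 5, and 4 with rescaling or 7 groups. Rescaling, which shifts all genes of late cells, gave 34 between late and ch+, 30 for HL60 late against ctrl, 8 between the late lines, and 1 for each line's ch- cells, where 9055, 5539, 705, 178 (HL60) and 338 (ML1) of all 13020 tested genes were called. For HL60 ch+ against ctrl, 2 were called without a filter and with the groups alone, 3 without a trend and 4 at 0.05. For ML1 ch+, 4 were called without a filter. For HL60 ch-, 1 was called without a filter, without a trend and at 0.05, and for ML1 ch- 1 without a filter, without a trend and with the groups alone. Between the late lines, 2 were called without a trend and 12 with the groups alone. Between ML1 ch+ and ch-, 0 were called without a filter.

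Leaving out each library in turn gave 3 to 10 for ch+ against ctrl, 1 to 2 for ch-, 0 to 2 between ch+ and ch-, 8 to 17 for HL60 late, 3 to 8 for HL60 ch+, 4 to 11 for ML1 ch+, 1 to 2 for HL60 ch- and for ML1 ch-, 0 to 1 between the late lines, 0 to 1 between HL60 ch+ and ch-, and 0 to 2 between ML1 ch+ and ch-. Counts of 19 to 27 for late against ctrl, 11 to 16 for late against ch+ and 23 to 30 for ML1 late stayed within 1.5 times the reported ones. With 3 controls shared by most comparisons and the depth per library unknown, members near the floor could not be judged.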
